A study of Rattus norvegicus with 6 samples.

Results

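The 9 genes described here belong to the complement cascade: *C1qa*, *C1qb*, *C1qc*, *C1s*, *C2*, *C3*, *Cfb*, *Cfi* and *Serping1*. They were picked by symbol, with earlier results on the diet comparison in these rats known, and all 9 are among the 17051 genes of the expression tables. The minimum for testing, 30 estimated reads in any of the rats, was reached by 8 of them and by 11553 genes in all, and *Cfi* stayed below it in every rat. RNA came from kidney tissue of male Sprague Dawley rats, a subset of the rats in the study, randomized to standard laboratory chow ad libitum (AL group, rats 61, 71 and 88) or to chow mixed with an ammoniagenic amino acid preparation that mimics hemoglobin (HD group, rats 64, 67 and 69). The diets were given for a week, and the labels give no age. The diet was meant to raise renal ammonia production in rats with a normal liver, so the HD group is not a model of liver failure.

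Complement is a set of plasma proteins that mark particles for removal and that can lyse cells. In the classical pathway, C1q binds antibody or other ligands and activates the proteases C1r and C1s, which cleave C4 and C2 to form an enzyme that cleaves C3. In the alternative pathway, factor B (*Cfb*) pairs with C3b and amplifies the cascade, while factor I (*Cfi*) inactivates C3b and the C1 inhibitor (*Serping1*) blocks C1r and C1s. The liver makes most circulating complement, but C1q is made mainly by macrophages and dendritic cells, and in the kidney tubular epithelium is known to make C3 and factor B, with stromal cells as a further source of early components.

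The 3 chains of C1q are encoded side by side on chromosome 5 of genome build rn5, all on the minus strand and with 3 exons each, *C1qb* from 159008943 to 159014492, *C1qc* from 159017524 to 159020850 and *C1qa* from 159023753 to 159026600. Promoter sequences from RefSeq (build GRCr8, 250 bases before to 50 bases after the gene start) were matched for 4 of the 9 genes. Those of *C1qa* and *C1qb*, whose levels moved closely together among the rats, and that of *C3* are shown for their motifs, with matches in capitals.
C1qa, chr5:154419884-154420183 (- strand): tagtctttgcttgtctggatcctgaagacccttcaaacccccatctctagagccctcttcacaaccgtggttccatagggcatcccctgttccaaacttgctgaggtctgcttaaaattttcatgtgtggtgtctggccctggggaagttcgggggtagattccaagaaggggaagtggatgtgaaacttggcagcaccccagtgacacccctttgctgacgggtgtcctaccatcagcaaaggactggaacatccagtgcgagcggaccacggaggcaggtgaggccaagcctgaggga
C1qb, chr5:154407778-154408077 (- strand): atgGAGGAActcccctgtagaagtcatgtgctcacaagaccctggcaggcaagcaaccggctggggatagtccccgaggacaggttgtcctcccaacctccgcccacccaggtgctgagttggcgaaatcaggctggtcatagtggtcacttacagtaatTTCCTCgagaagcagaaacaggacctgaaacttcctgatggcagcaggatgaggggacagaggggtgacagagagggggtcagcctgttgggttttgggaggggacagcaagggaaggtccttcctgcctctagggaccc
C3, chr9:2201290-2201589 (- strand): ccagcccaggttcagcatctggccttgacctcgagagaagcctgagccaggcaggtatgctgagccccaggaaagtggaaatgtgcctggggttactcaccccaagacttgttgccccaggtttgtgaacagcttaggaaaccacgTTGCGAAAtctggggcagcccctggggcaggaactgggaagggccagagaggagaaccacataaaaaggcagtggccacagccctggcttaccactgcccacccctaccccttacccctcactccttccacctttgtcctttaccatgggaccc

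The capitals mark matches on either strand to GAGGAA (a PU.1 core) or TTGCNNAA (C/EBP). GAGGAA was found in the window of *C1qb* 247 and 90 bases before the gene start, and in 27.6% of the 33469 rat promoters of the table. TTGCNNAA was found in *C3* 104 bases before the start, and in 10.6% of all promoters. None of these letters, nor TATAAA (14.2% of all promoters) or GAAANNGAA (the core of an interferon response element, 9.71% of all promoters), was present in the window of *C1qa* or of *Cfi*, and a match describes letters only.

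Total counts ranged from 12499938 to 30466453 among the 6 rats, with both ends in the HD group. Levels below are CPM, counts scaled to the library by edgeR's TMM method, and comparisons between genes use TPM, which is also corrected for transcript length. The tissue carried the markers of kidney tubules in every rat, with *Lrp2*, the endocytic receptor megalin of the proximal tubule, between 1790 and 2569 CPM. *Umod*, the uromodulin of the thick ascending limb, lay between 2719 and 4059 CPM. *Alb*, the liver's albumin gene, was at 1.79 CPM or less. No gene of the 11553 passed an adjusted *P* value of 0.05 in edgeR's quasi-likelihood test with Benjamini-Hochberg adjustment, and 1224 had an unadjusted *P* value below 0.05. Since the 9 genes were chosen with this contrast known, their diet differences are given as descriptions, without a test.

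C1q was lower in most HD rats, and the groups overlapped. *C1qa*, the A chain, was at 7.70, 21.6 and 18.7 CPM in AL rats 61, 71 and 88, and at 3.82, 4.59 and 9.36 CPM in HD rats 64, 67 and 69. *C1qb*, the B chain, was at 7.46, 15.2 and 18.4 CPM in the AL rats and at 2.63, 4.24 and 8.72 CPM in the HD rats. *C1qc*, the C chain, was at 10.3, 24.5 and 23.2 CPM in the AL rats and at 4.07, 3.94 and 11.3 CPM in the HD rats. For all 3 chains AL rats 71 and 88 were the highest, HD rats 64 and 67 the lowest, and HD rat 69 lay above AL rat 61. The log2 fold changes (HD against AL, edgeR, with SE the standard error) were -1.41 for *C1qa* (SE 0.47), -1.37 for *C1qb* (SE 0.49) and -1.56 for *C1qc* (SE 0.50). With each rat left out in turn they ranged from -1.92 to -1.14 for *C1qa*, from -1.98 to -1.07 for *C1qb* and from -2.27 to -1.30 for *C1qc*. The largest difference of each chain came without HD rat 69. In bulk tissue, fewer cells of a type and less RNA per cell cannot be told apart.

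The 3 chains moved in near-fixed proportion. Of the summed C1q TPM, *C1qa* made up 33.2% ± 2.70 (SD, *n* = 3) with the AL diet and 35.8% with the HD diet. *C1qb* made up 27.0% ± 2.93 and 28.0%, and *C1qc* 39.8% ± 1.01 and 36.2%, respectively. Summed C1q meanwhile spanned 10.5 to 61.4 CPM among the rats. The largest departure was HD rat 67, where *C1qc* took 31.0% of the C1q TPM, on 79 reads.

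**Figure D1:**
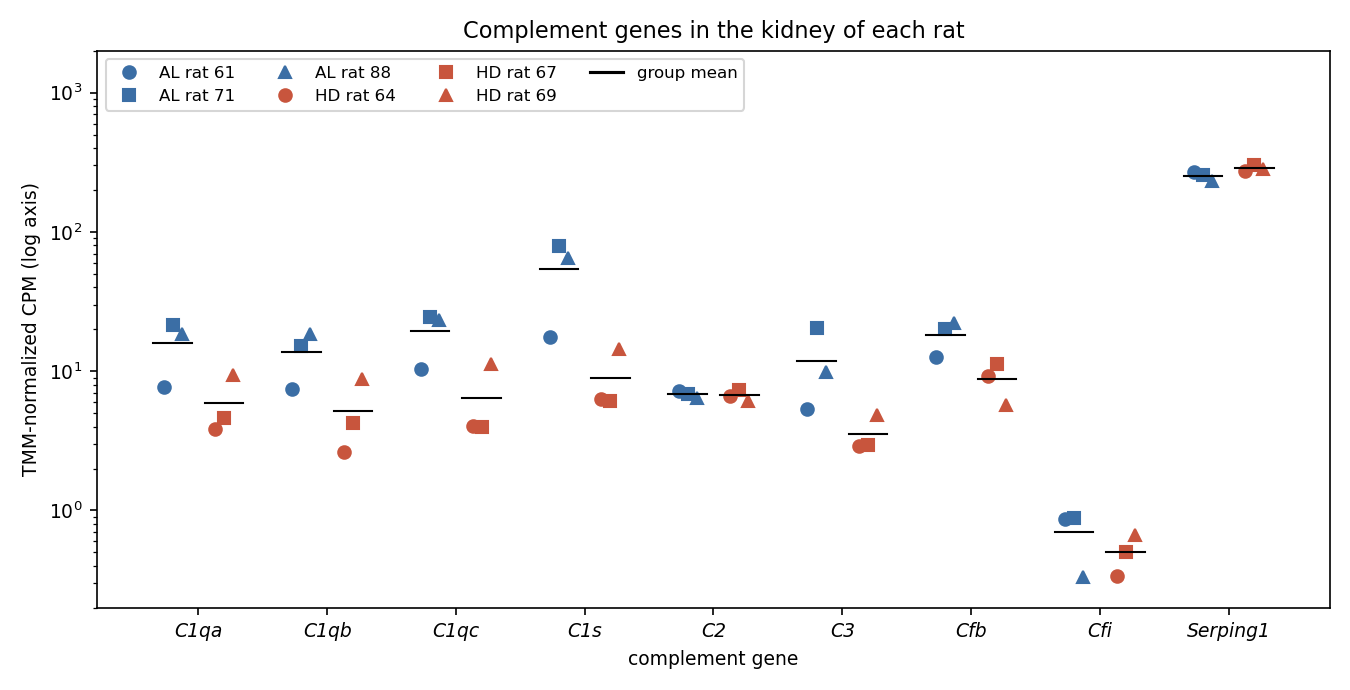
Level of the 9 complement genes in each rat (TMM-normalized CPM, log axis), AL rats in blue and HD rats in red, a symbol for each rat and a black bar for the group mean. *C1qa*, *C1qb*, *C1qc*, *C1s*, *C3* and *Cfb* have lower HD means, while *C2* and *Serping1* stay within a narrow band in all 6 rats.

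*C1s*, the protease that cleaves C4 and C2, had the largest difference of the 8 genes. Its 12 exons span 224162096 to 224174100 on chromosome 4 (rn5). It was at 17.7, 79.9 and 65.2 CPM in AL rats 61, 71 and 88, and at 6.28, 6.14 and 14.5 CPM in HD rats 64, 67 and 69. Every HD rat lay below every AL rat, and AL rat 61 was much nearer to HD rat 69 than to the other AL rats. The log2 fold change was -2.57 (SE 0.59), and it ranged from -3.13 to -2.20 with each rat left out in turn. Its partner *C1r*, which activates C1s in the C1 complex, was not among the 9 genes and had the same order of groups, with 23.6, 106 and 101 CPM in the AL rats and 12.6, 13.6 and 21.6 CPM in the HD rats. In TPM its groups overlapped, with AL rat 61 at 12.6 and HD rat 69 at 12.9. Its log2 fold change was -2.26 (SE 0.53, with adjusted *P* values of 0.368 by edgeR and 0.000524 by DESeq2). Per length, the TPM of *C1r* was 1.51 ± 0.135 times that of *C1s* (SD, *n* = 3) with the AL diet and 2.05 times with the HD diet, with ratios of 1.61 to 2.39 in the HD rats against 1.43 to 1.67 in the AL rats.

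*Serping1*, the C1 inhibitor that blocks both proteases, was the most abundant of the 9 genes and differed little. Its 7 exons span 78681826 to 78691120 on chromosome 3 (rn5). It was at 269, 257 and 234 CPM in AL rats 61, 71 and 88, and at 272, 303 and 283 CPM in HD rats 64, 67 and 69. Every HD rat was above every AL rat, by a margin of 272 against 269 CPM, but in TPM the groups overlapped, with AL rat 71 at 251 and HD rat 64 at 227. The log2 fold change was 0.18 (SE 0.11). Within groups it had an SD of 0.092 on the log2 scale, with a smaller SD in 7.94% of the tested genes, against 0.97 for *C1s*. Its TPM was 5.28 to 24.9 times that of *C1s* in the AL rats and 32.0 to 80.8 times in the HD rats. *Serping1* made up 57.9% to 78.8% of the summed TPM of the 9 genes in the AL rats and 79.8% to 88.7% in the HD rats.

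Of the genes for the C3-cleaving enzymes, *C2* was at a like level in all 6 rats and *Cfb* was lower in the HD group. The pair are neighbors on chromosome 20 of rn5, *Cfb* from 6616006 to 6621872 and *C2* from 6622139 to 6641139, with 18 exons each. *C2*, the protease of the classical pathway enzyme, was at 7.22, 6.87 and 6.42 CPM in AL rats 61, 71 and 88, and at 6.62, 7.39 and 6.14 CPM in HD rats 64, 67 and 69. Its log2 fold change was -0.03 (SE 0.19), and the groups overlapped. *Cfb*, its counterpart in the alternative pathway, was at 12.7, 20.1 and 22.2 CPM in the AL rats and at 9.25, 11.3 and 5.69 CPM in the HD rats, with no overlap. The log2 fold change of *Cfb* was -1.07 (SE 0.31). HD rat 69, the highest HD rat for C1q, C1s and C3, was the lowest of all 6 for *Cfb*. The TPM of *Cfb* over that of *C2* lay between 1.79 and 3.51 in the AL rats and between 0.945 and 1.56 in the HD rats.

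*C3*, the protein on which all complement pathways converge, was scarce per length in this tissue. Its 41 exons span 8728465 to 8754412 on chromosome 9 (rn5), and its TPM was 3.82 ± 2.77 with the AL diet and 1.06 ± 0.396 with the HD diet (SD, *n* = 3 each). It was at 5.32, 20.4 and 9.85 CPM in AL rats 61, 71 and 88, and at 2.88, 2.95 and 4.83 CPM in HD rats 64, 67 and 69. The groups did not overlap, but AL rat 61 and HD rat 69 were separated by 5.32 against 4.83 CPM, and in TPM they overlapped at 1.49 and 1.52. The log2 fold change of *C3* was -1.73 (SE 0.49), and -1.09 without AL rat 71. *Cfi*, the protease that inactivates C3b, has 11 exons between 74628922 and 74659423 on chromosome 2 (rn5). It was near the limit of detection, with 4 to 21 estimated reads in a rat and 0.331 to 0.886 CPM, the AL and HD rats overlapping.

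In TPM, the order of mean levels in the AL group was *Serping1* (227 ± 20.5, SD, *n* = 3), then *C1qc* (31.8 ± 14.8), *C1s* (30.9 ± 19.9), *C1qa* (27.1, with rats at 11.5, 31.2 and 38.7), *C1qb* (21.4 ± 9.71), *Cfb* (11.6 ± 3.82), *C2* (4.18 ± 0.332), *C3* and *Cfi* (0.620 ± 0.288). *Serping1* stood clear of all others, while the C1q chains and *C1s* overlapped in their spread between rats. Within each AL rat, *C1qc* was above *C1qa* and *C1qb*. In the HD group the order was *Serping1* (245 ± 15.5, SD, *n* = 3), *C1qc* (10.1 ± 7.22), *C1qa* (9.46 ± 5.37), *C1qb* (7.72 ± 5.13), *Cfb* (5.13 ± 1.44), *C1s* (4.77 ± 2.83), *C2* (3.90 ± 0.203), *C3* and *Cfi* (0.430 ± 0.161). There the levels from *C1qc* to *C1s* overlapped in their spread between rats, and *C2* overlapped with *C1qb*, *Cfb* and *C1s*. Within each HD rat, *C1s* was below every C1q chain, and *C1qa* and *C1qc* were above *C2*.

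The 8 tested members differed in their spread between rats of the same group. The within-group SD on the log2 scale was between 0.74 and 0.97 for the C1q chains, *C1s* and *C3*, and between 91.8% and 96.2% of the tested genes had a smaller one. It was 0.47 for *Cfb*, 0.11 for *C2* and 0.22 for the median tested gene. The root mean square difference between the centred log2 levels of *C1qa* and *C1qb* over the 6 rats was 0.21, that of *C1qa* and *C1qc* 0.20, and that of *C2* and *Serping1* 0.12. Between *C1qa* and *C3* it was 0.30, between *C1qa* and *C1s* 0.57, and between *C1qa* and *Cfb* 0.72. These distances include the diet difference that the members were chosen for and carry no test.

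**Figure D2:**
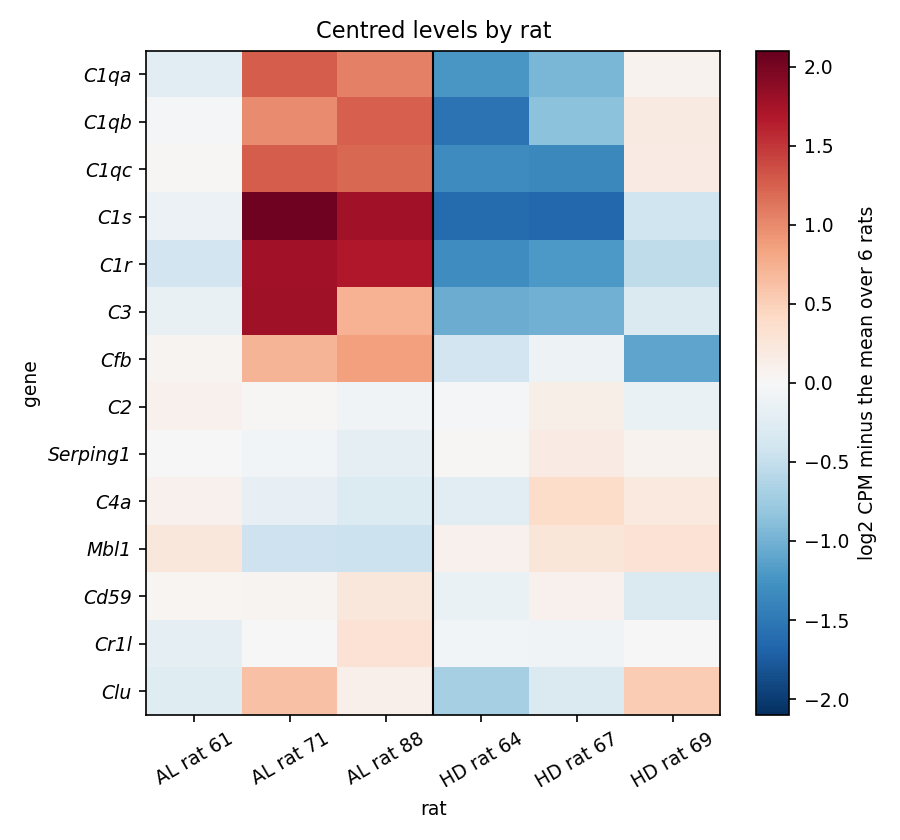
Log2 CPM of 14 complement genes minus each gene's mean over the 6 rats (color scale, red above and blue below the mean), AL rats left of the line and HD rats right of it. AL rats 71 and 88 are high and HD rats 64 and 67 low for *C1qa* to *C3*. *Cfb* is high in AL rats 71 and 88 and lowest in HD rat 69, while *C2* and *Serping1* are near 0 throughout.

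C1q was then set against the 6 other members within each rat, a ratio in which library scaling cancels. The log2 ratio of summed C1q CPM to the summed CPM of the others was -3.62, -2.65 and -2.49 in AL rats 61, 71 and 88, and -4.82, -4.70 and -3.42 in HD rats 64, 67 and 69. The HD mean was lower by 1.40, with HD rat 69 above AL rat 61. The difference rested on *Serping1* being in the sum. Without it the ratio was -0.782, -1.06 and -0.787 in the AL rats and -1.27, -1.15 and -0.112 in the HD rats, a difference of 0.034 in the opposite direction. Against *C3* and *Cfb* alone the ratio averaged 0.671 ± 0.215 (SD, *n* = 3) with the AL diet and 0.373 with the HD diet, and HD rat 69 had the highest ratio of all rats at 1.49.

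Summed markers of macrophages and of stroma had lower HD means, as had the C1q chains, *C1s*, *C3* and *Cfb*, while *C2* and *Serping1* differed little. *Cfb* was lowest in HD rat 69, the HD rat with the highest sums of both marker lists. The marker lists were chosen with earlier results of these data known, and the part of these cells in the differences was not tested. Of 18 tested macrophage markers, 17 were lower in HD rats, and their median log2 fold change was -1.47, against 0.01 over all tested genes. Their summed level was 379 to 883 CPM in the AL rats and 221 to 430 CPM in the HD rats. Most abundant were *Cd74*, the invariant chain of MHC class II (log2 fold change -0.27, SE 0.30), *Lyz2*, a lysozyme gene (-2.30, SE 0.52), and *Csf1r*, the receptor for the macrophage growth factor (-1.19, SE 0.39). Per 100 CPM of the 18 macrophage markers, the kidneys held 6.72, 6.95 and 9.99 CPM of C1q in AL rats 61, 71 and 88, and 3.84, 5.79 and 6.84 in HD rats 64, 67 and 69. The HD mean was lower by this measure, with HD rat 69 above AL rat 61. Without *Cd74*, left out after its values were seen, C1q per 100 CPM of the other 17 markers was 13.9, 10.4 and 14.7 CPM in the AL rats and 12.1, 12.2 and 17.6 CPM in the HD rats, with a slightly higher HD mean and overlapping groups. C1q over *Csf1r* was 1.20 to 1.74 in the AL rats and 0.892 to 1.52 in the HD rats, also with overlap. C1q over *Ptprc*, another of the markers, was 3.54 to 6.46 in the AL rats and 3.76 to 5.94 in the HD rats.

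**Figure D3:**
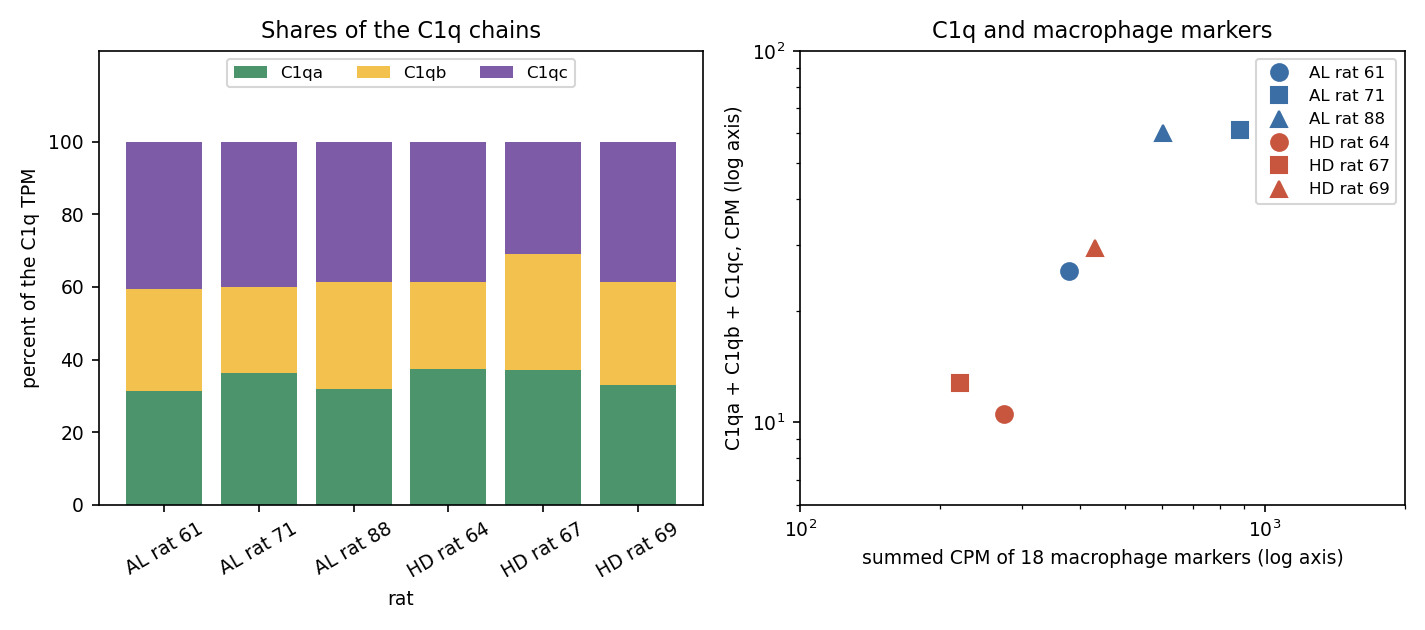
Left, share of each C1q chain in the summed C1q TPM of each rat (percent). Right, summed C1q CPM against the summed CPM of 18 macrophage markers (both log axes, a point for each rat, AL in blue and HD in red), where C1q spans 10.5 to 61.4 CPM while C1q per 100 CPM of markers lies between 3.84 and 9.99.

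Of 9 tested markers of fibroblasts and stroma, 7 were lower in the HD group (median log2 fold change -0.998), with *Pdgfra*, *Dcn* and *Col3a1* the most abundant. The complement gene *Cfd* was among the 2 that were higher. The sum of the 9 markers was 202 to 486 CPM in the AL rats and 111 to 262 CPM in the HD rats. Without *Cfd* it was 191 to 484 CPM in the AL rats and 111 to 240 CPM in the HD rats. Endothelial markers were lower in 6 of 7 (median -0.42, most abundant *Plvap*, *Pecam1* and *Emcn*), with 188 to 507 CPM in the AL rats and 114 to 372 in the HD rats. T and B lymphocyte markers were lower in 6 of 6 (median -1.98, most abundant *Cd4*, *Lck* and *Cd8a*), at 8.02 to 32.8 and 2.38 to 6.87 CPM. Both tested neutrophil markers, *Mpo* and *S100a9*, were scarce, and the groups overlapped for each. *S100a9* was at 4.67 CPM in HD rat 64 and at 0.776 CPM or less in all other rats, while *Mpo* was at 4.59 and 4.79 CPM in HD rats 67 and 69 and at 1.11 CPM or less in the others. Hepatocyte markers were higher in 4 of 5 (median 0.10, most abundant *Apoh*, *Fga* and *Fgb*), at 55.5 to 80.9 CPM in the AL rats and 59.6 to 77.6 in the HD rats. Proximal tubule markers were higher in 7 of 9 (median 0.41, most abundant *Aqp1*, *Miox* and *Slc34a1*), with sums of 11464 to 13932 and 14521 to 17900 CPM. Markers of the loop and distal tubule were lower in 6 of 11 (median -0.05), at 7127 to 7772 and 5873 to 8066 CPM. The most abundant of them, *Umod*, *Slc12a1* and *Aqp2*, had log2 fold changes of -0.12 (SE 0.18), -0.86 (SE 0.31) and -0.05 (SE 0.15), respectively.

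The rest of the cascade did not share a direction. Of 47 other complement genes listed, 22 were tested, of which 12 were lower and 10 higher with the HD diet, and their median log2 fold change was -0.01. None passed the adjusted threshold in edgeR, as for all genes (0% called in either direction). At an unadjusted *P* value below 0.05 there were 2 lower (*C1r* and *C5ar1*), against a background of 5.94% of all tested genes, and 4 higher (*C6*, *Cd55*, *Cpn1* and *Csmd1*), against 4.66%. In DESeq2, the tool named in the study's methods, *C1r* was called lower (0.77% of all tested genes were) and *Csmd1* higher (0.805%). *C5ar1*, *C6* and *Csmd1* averaged below 5 CPM and were named after their values were seen.

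*Cd55*, which speeds the decay of the C3-cleaving enzymes on cell membranes, was at 4.68, 3.21 and 1.59 CPM in AL rats 61, 71 and 88, and at 7.21, 6.59 and 7.96 CPM in HD rats 64, 67 and 69, with a log2 fold change of 1.20 (SE 0.38, edgeR adjusted *P* = 0.406). *Cpn1*, a carboxypeptidase subunit that inactivates the anaphylatoxins, had a log2 fold change of 0.61 (SE 0.22, edgeR adjusted *P* = 0.408). *Cd59*, which blocks the membrane attack complex, was at 454, 460 and 518 CPM in the AL rats and 400, 468 and 356 CPM in the HD rats, and *Cr1l*, the rodent regulator Crry, lay between 52.1 and 73.5 CPM in all rats.

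The other named components differed in both directions. *C4a* and *C4b*, near-identical copies of the C4 gene whose reads may be split uncertainly, had log2 fold changes of 0.26 (SE 0.18) and 0.35 (SE 0.47). *Mbl1*, a mannose-binding lectin that starts the lectin pathway, had 0.40 (SE 0.20) with overlapping groups, *Cfp*, properdin, -0.24 (SE 0.25), and *C8g*, of the membrane attack complex, -0.01 (SE 0.20). *Clu*, clusterin, had -0.26 (SE 0.34), *Itgb2*, a subunit of complement receptors on leukocytes, -0.03 (SE 0.17), *Cd93* -0.00 (SE 0.60, and 0.61 without AL rat 71) and *C1qbp*, named for binding C1q, 0.15 (SE 0.14). *Cfd*, factor D, which is made in fat and activates factor B, was between 1.61 and 10.2 CPM in the AL rats, and was at 0.170 CPM in HD rat 64 against 21.8 CPM or more in the other HD rats, so that its log2 fold change of 1.94 had a standard error of 1.24. It was 3.26 without AL rat 61 and 1.29 without HD rat 67.

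**Figure D4:**
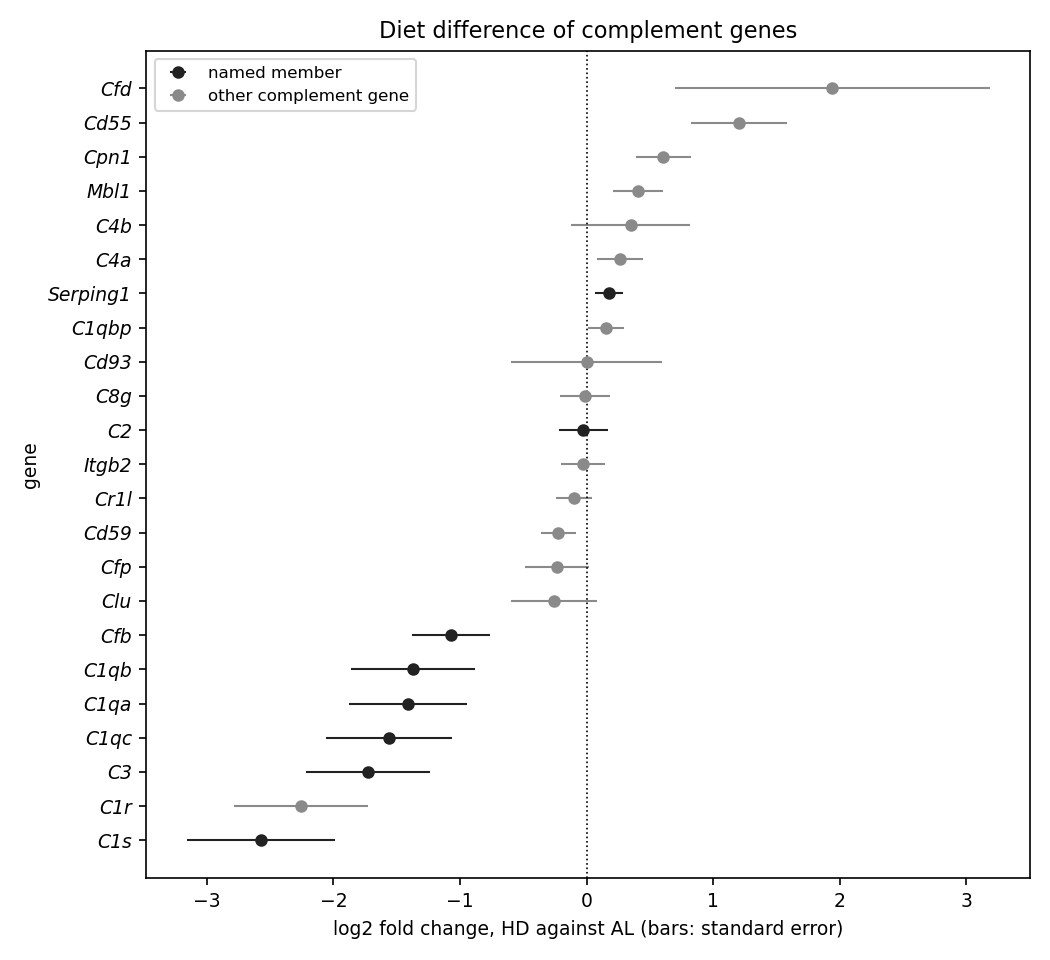
Log2 fold change of the 8 tested members (black) and of the 15 other complement genes averaging at least 5 CPM (grey), HD against AL, with bars for the standard error from edgeR. *C1s* at -2.57 is the lowest, 6 members and *C1r* lie below -1, and *C2* and *Serping1* lie near 0.

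Among the 9 genes, 7 of the 8 tested had a log2 fold change below 0, against 48.7% of all tested genes, and 6 had one below -1, against 4.31%. The median was -1.39, and *Serping1* was higher. In CPM every HD rat lay below every AL rat for *C1s*, *C3* and *Cfb*, against 7.01% of all genes, and above for *Serping1*, against 7.25%. In TPM the groups of *C3* and of *Serping1* overlapped. The choice of the genes used this contrast, so nothing follows from these shares.

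Of transcription factors and cytokines known to act on complement genes, 12 were tested, 7 lower and 5 higher, with a median log2 fold change of -0.02. The most abundant were *Stat3* (0.00, SE 0.15), *Cebpb* (0.16, SE 0.33) and *Rela* (-0.01, SE 0.12), and none passed the adjusted threshold in edgeR or DESeq2. At an unadjusted *P* value below 0.05 there were 2, the interferon regulatory factors *Irf1* and *Irf8*, both lower, against a background of 5.94% of all tested genes, and they were named after their values were seen.

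The genes with levels most like those of C1q were sought among 11264 genes averaging at least 1 CPM, by the root mean square difference of centred log2 CPM over the 6 rats. This difference also includes the diet contrast that the members were chosen for. The ranks therefore carry no test, and the cell source of C1q was not tested. Closest to the mean of the 3 chains were *Cygb* (0.10), *Adamts12* (0.14), *Pdgfrb* (0.14), *Ifitm1* (0.15) and *Fn1* (0.15). *Cygb* encodes cytoglobin, *Adamts12* a secreted metalloprotease, *Pdgfrb* a growth factor receptor of pericytes and fibroblasts, *Ifitm1* an interferon-induced membrane protein and *Fn1* fibronectin. The macrophage receptor gene *Csf1r* came at rank 161, with a difference of 0.36, and the ranks of the other macrophage markers were not looked up. Closest to *C3* were *Vav1* (0.16), *Ptprc* (0.20), *Ncf4* (0.22), *Tlr7* (0.22) and LOC498276 (0.22). *Vav1*, *Ptprc* (CD45), *Ncf4* and *Tlr7* are genes of leukocytes. For *C3*, *Csf1r* came at rank 19.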

How the data were processed

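Kidney RNA of 6 rats was poly(A)-selected and sequenced as single-end 100 bp reads, each rat as a library of its own. Per the labels and the study's methods, the authors quantified transcripts with RSEM 1.1.15 at default parameters on the University of California Santa Cruz gene definitions for rn5. The authors deposited estimated counts (expected counts), which are not normalized, and TPM values. Filters on reads before RSEM are not given in the sources used here, and the library kit does not mark strand. Each of the 9 genes has 1 transcript in the files.

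Estimated counts were summed per gene and rounded. Genes with at least 30 counts in at least 1 rat were tested with edgeR 4.0.16 (R 4.3.3, TMM, quasi-likelihood, diet as the only factor), with Benjamini-Hochberg adjustment over all tested genes and a threshold of 0.05. The biological coefficient of variation between rats was 0.242. Standard errors (SE) are the size of the log2 fold change over the square root of the F statistic. Centred levels used log2 CPM with a prior count of 2. DESeq2 1.42.0, other scalings and filters, the posterior mean counts and the omission of each rat were alternatives. An exact permutation test of 3 against 3 rats cannot go below 0.1 and was not used. Rats are replicates by their labels.

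The 9 genes and all lists were chosen with earlier results of these data known. Some listed genes are not reported here and were left out of the lists and their counts. The text names the 9 genes, other complement genes averaging at least 5 CPM, the 3 most abundant genes of a marker list, the 5 genes closest to C1q and to *C3*, and, outside this rule, tissue markers (*Lrp2*, *Alb*) and genes marked as named after their values were seen.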

Additional observations from a re-analysis of the deposited data

How the results depend on the processing

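The number of genes past the adjusted threshold was 0 with edgeR's quasi-likelihood test, 182 with DESeq2 and 2 with no minimum count, and it ranged from 0 to 4 with each rat left out. At an unadjusted *P* value below 0.05 the numbers were 1224 and 1325 for edgeR and DESeq2. The median log2 fold change of the tested complement members stayed within 1 SD between rats of its value under every alternative run, as did that of the other complement genes, including after *C5ar1*, *Itgam*, *Itgb2* and *Cd93* were left out, a choice made after seeing the data. The lower level of C1q against the other members (-1.40 on the log2 scale) became 0.034 when *Serping1* was left out and -0.298 against *C3* and *Cfb* alone, both chosen after seeing the data. Only the components of the ratio differ between these values. Likewise chosen, C1q per 100 CPM of macrophage markers, lower by 2.39 in the HD group (1.34 to 3.07 with each rat left out), was higher by 0.946 without *Cd74*. The scalings, the count filters, robust edgeR and DESeq2 give no value of their own for this ratio. With each rat left out, the log2 fold change of *C2* ranged from -0.102 to 0.042. It was above 0 without AL rat 61 (0.014) or HD rat 69, and the cause was not tested. Of the other 102 values of single members under an alternative, each kept its direction and moved by less than 1 SD. Scaling by library size alone took the median of all genes from 0.0067 to -0.074 on the log2 scale, a shift smaller than any member difference except that of *C2*. No paired analysis was run, because the groups are different rats, randomized to the diets, with no pairing stated. Depth limits *Cfi*, with at most 21 reads in a rat, to a description.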
